A study of Mus musculus with 12 samples.

Results

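The genes described here encode the proteins of the cytosolic ribosome in mouse mandibular lymph nodes. They were chosen by name: protein-coding genes whose GENCODE symbol starts with Rpl or Rps followed by a digit, together with Rplp0, Rplp1, Rplp2 and Rpsa, leaving out the Rps6k kinases and every symbol marked as a pseudogene. The rule found 86 of the 56941 genes in the table. Of these, 49 carry a numbered Rpl symbol and are counted with the large (60S) subunit, 34 are counted with the small (40S) subunit and 3 form the P stalk. Among them were 9 paralogs or look-alikes (Rpl3l, Rpl7l1, Rpl10l, Rpl22l1, Rpl36al, Rpl39l, Rps27l, Rps27rt and Rps19bp1). Rps19bp1 encodes a protein that binds Rps19 and is no ribosomal protein itself, so the rule caught it by its name only. The genes lie on 19 chromosomes, with 14 on chromosome 7 and 4 on the X chromosome (Rpl10, Rpl36a, Rpl39 and Rps4x). Rpl10l, a testis copy of Rpl10, had no count in any library, and the other 85 passed the filter on low counts and were tested.

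RNA came from mice lacking the microRNA miR-451a (KO) and from wild-type mice (WT), all sensitized with dinitrofluorobenzene (DNFB), a skin allergen, as 100 µl of a 0.5% solution on the shaved abdomen on days 0, 1 and 2. KO_DTH and WT_DTH nodes were taken on day 10, 24 hours after a challenge of 20 µl of 1% DNFB on the left ear, and KO_se and WT_se nodes on day 9 without challenge. Each group had 3 libraries, 12 in all, and no group was left unsensitized. The effect of challenge therefore cannot be told apart from that of the day of harvest. The labels do not give the mice's strain, age or sex, nor do they say that the 3 libraries of a group are 3 animals. The p-values below therefore weigh a difference against library spread only, and that spread may be technical. The microRNA's own gene, which would check the genotype labels, is not analysed here.

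A ribosome holds 1 copy of most of these proteins, joined to ribosomal RNA in the nucleolus and exported as separate subunits. The 40S subunit reads the mRNA, the 60S subunit forms the peptide bond, and the P stalk on the 60S subunit recruits the elongation factors. Most vertebrate genes of the family start transcription inside a run of pyrimidines, the terminal oligopyrimidine (TOP) motif, through which mTOR and Larp1 control translation of their mRNA together. Lymphocytes that are activated and divide are known for a strong need of new ribosomes.

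Each library held between 36.9 and 58.4 M estimated counts. The tissue was mixed: salivary gland genes held 2.08 to 14.5% of all counts per library and genes encoded in mitochondrial DNA 4.37 to 19.1%. Salivary genes took 7.59 ± 2.97% of counts in KO_DTH, 4.67 ± 2.04% in KO_se, 2.60 ± 0.684% in WT_DTH and 10.6 ± 3.73% in WT_se libraries (mean ± SD, n = 3 each). Mitochondrial genes took 10.5 ± 5.10% in KO_DTH, 13.6 ± 2.09% in KO_se, 5.13 ± 0.733% in WT_DTH and 17.0 ± 2.83% in WT_se libraries. Lymphocyte markers were present in every library, with summed levels of 4317.7 to 6099 CPM, counts scaled to library size, for 15 T cell genes and 4968 to 10706 CPM for 12 B cell genes, and none of these genes was at 0 in a whole group. In such bulk RNA, fewer cells of a type and less RNA per cell cannot be told apart.

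Start sites of the genes are shown because the TOP motif is the sequence feature the family is known for. RefSeq gave a promoter for 66 of the 86 genes (build GRCm38.p6, whereas the counts were made on GRCm39). Each line is 30 bases, 15 before the annotated start and 15 from it on, read 5′ to 3′ on the gene's strand, and capitals mark a C followed by at least 4 more C or T bases that begins within 5 bases of the start. The first set has such a tract: Rps6 at chr4:86857353-86857382 (minus strand), Rpl13a at chr7:45128731-45128760 (minus strand), Rps18 at chr17:33955651-33955680 (minus strand), Rpl12 at chr2:32961697-32961726 (plus strand), Rplp2 at chr7:141447636-141447665 (plus strand), Rpl22l1 at chr3:28805493-28805522 (plus strand). The second set has none: Rps25 at chr9:44407699-44407728 (plus strand), Rps7 at chr12:28635939-28635968 (minus strand), Rpl5 at chr5:107900513-107900542 (plus strand), Rpl10 at chrX:74270801-74270830 (plus strand), Rpl7l1 at chr17:46782642-46782671 (minus strand). Rps25, Rps7, Rpl5, Rpl10, Rpl12, Rpl13a, Rpl22l1 and Rpl7l1 passed a test below, while Rps6, Rps18 and Rplp2 did not.
Rps6: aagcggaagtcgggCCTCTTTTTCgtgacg
Rpl13a: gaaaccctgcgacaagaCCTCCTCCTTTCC
Rps18: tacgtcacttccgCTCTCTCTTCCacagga
Rpl12: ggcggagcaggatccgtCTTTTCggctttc
Rplp2: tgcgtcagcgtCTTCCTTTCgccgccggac
Rpl22l1: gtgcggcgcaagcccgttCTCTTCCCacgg
Rps25: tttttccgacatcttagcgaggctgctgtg
Rps7: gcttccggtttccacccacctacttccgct
Rpl5: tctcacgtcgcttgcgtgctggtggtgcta
Rpl10: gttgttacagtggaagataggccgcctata
Rpl7l1: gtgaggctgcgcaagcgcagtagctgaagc
Such a tract was found in 30 of the 66 genes (45.5%), against 21.2% of 27025 genes with a promoter in the table and 24.6% of 69 mitochondrial ribosomal protein genes. The letters CCGGAAG, searched on both strands in the 300 bases from 250 before the start, were in 39.4% of the 66 genes and 9.93% of all genes. AAGATGGC was in 9.09% of the 66 and 3.19% of all genes, CACGTG in 9.09% and 8.09%, and TATAAA in 10.6% and 15.7%. A match is a description of the letters, and no match says only that these letters are not in this window.

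Per kilobase of the annotated transcript, the levels spanned a wide range. Mean levels over the 12 libraries were highest for Rplp1 of the P stalk (3453 CPM per kb), Rps27 (3220.1 CPM per kb), Rpl13 (2442 CPM per kb), Rpl13a (2426 CPM per kb) and Rps18 (2223 CPM per kb). The low end was held by paralogs and the look-alike: Rpl36al had 123 CPM per kb, Rps27l 82.2, Rpl7l1 19.6 and Rps19bp1 14.1 CPM per kb. The muscle paralog Rpl3l and the testis paralog Rpl39l were sporadic, at 0.151 and 0.522 CPM per kb. These values rest on the annotated transcript length, which was as long as 5179 bases for Rps15a.

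Within a gene, levels moved little, and the genes moved together. In the 83 genes with a count in every library, the highest library was 1.18 times the lowest for Rpl8, 4.66 times for Rpl17 and 1.60 times at the median. KO_se libraries had the highest group mean for 76 of the 85 genes tested, and for 47 of them the 3 KO_se libraries were the highest of all 12. The lowest group mean was that of KO_DTH for 25 genes, KO_se for 1, WT_DTH for 19 and WT_se for 40. Over the 77 tested genes other than paralogs and look-alikes, the median log2 deviation from the gene's own mean was -0.21, -0.05 and 0.05 in KO_DTH, 0.22, 0.19 and 0.31 in KO_se, -0.27, 0.00 and 0.02 in WT_DTH, and -0.08, 0.08 and -0.27 in WT_se libraries. All 3 KO_se libraries stood above the other 9. Since the genes rose and fell by library, counts of genes below do not count independent events.

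**Figure D1:**
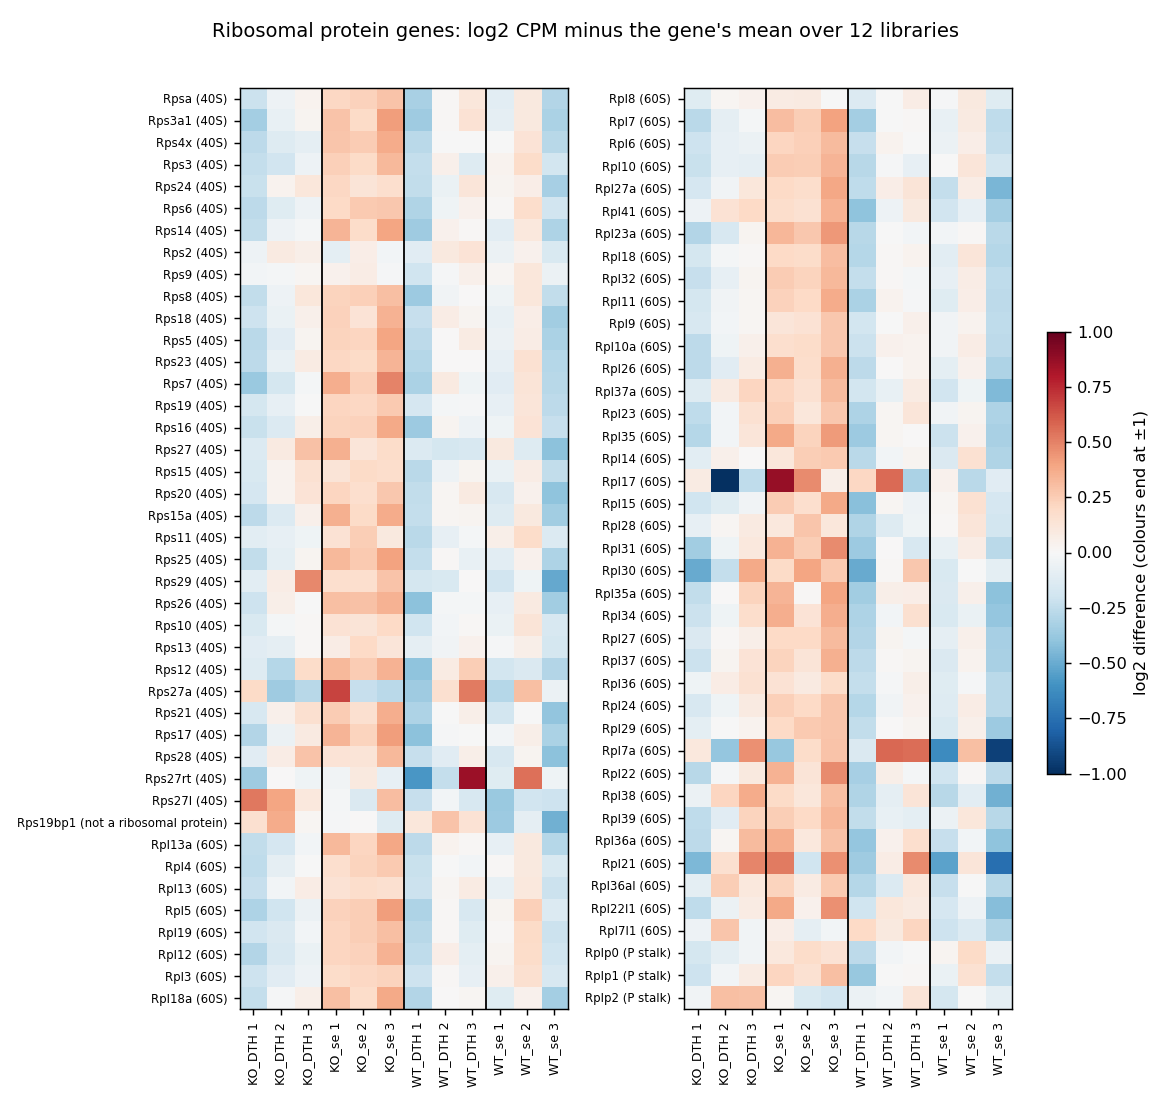
Log2 CPM of the 83 ribosomal protein genes with a count in every library (rows, by subunit and then by mean level), minus the gene's mean over the 12 libraries (columns, by group). Red is above and blue below the gene's mean; the KO_se columns are red for most rows, and Rpl17, Rpl7a, Rpl21, Rps27a and Rps27rt vary from library to library.

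Summed over the 86 genes, ribosomal protein mRNA took 7.15, 6.89 and 9.55% of all counts in KO_DTH, 9.20, 9.79 and 9.83% in KO_se, 7.98, 9.26 and 9.57% in WT_DTH, and 6.90, 7.47 and 6.19% in WT_se libraries. Group means were 7.86 ± 1.46% for KO_DTH, 9.61 ± 0.350% for KO_se, 8.93 ± 0.841% for WT_DTH and 6.85 ± 0.639% for WT_se (SD, n = 3 each). KO_se lay above WT_se without overlap, by 2.75 percentage points (two-sided exact permutation test, p = 0.1, the smallest that 3 against 3 allows, adjusted p = 0.2 over 4 comparisons). WT_DTH also lay above WT_se without overlap, by 2.08 points (exact p = 0.1, adjusted 0.2). KO_DTH was 1.74 points below KO_se and overlapped it (exact p = 0.2, adjusted 0.267), and it was 1.07 points below WT_DTH (exact p = 0.3, adjusted 0.3).

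The share depends on what else fills a library. Of the counts left without mitochondrial and salivary genes, ribosomal protein genes took 9.55 ± 0.913% in KO_DTH, 11.8 ± 0.443% in KO_se, 9.69 ± 0.984% in WT_DTH and 9.47 ± 0.906% in WT_se libraries (SD, n = 3 each). On that scale WT_DTH exceeded WT_se by only 0.218 points (exact p = 1), and their libraries overlapped. KO_se stayed 2.29 points above WT_se, and KO_DTH was 2.22 points below KO_se, both without overlap (exact p = 0.1, adjusted 0.2 each).

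**Figure D2:**
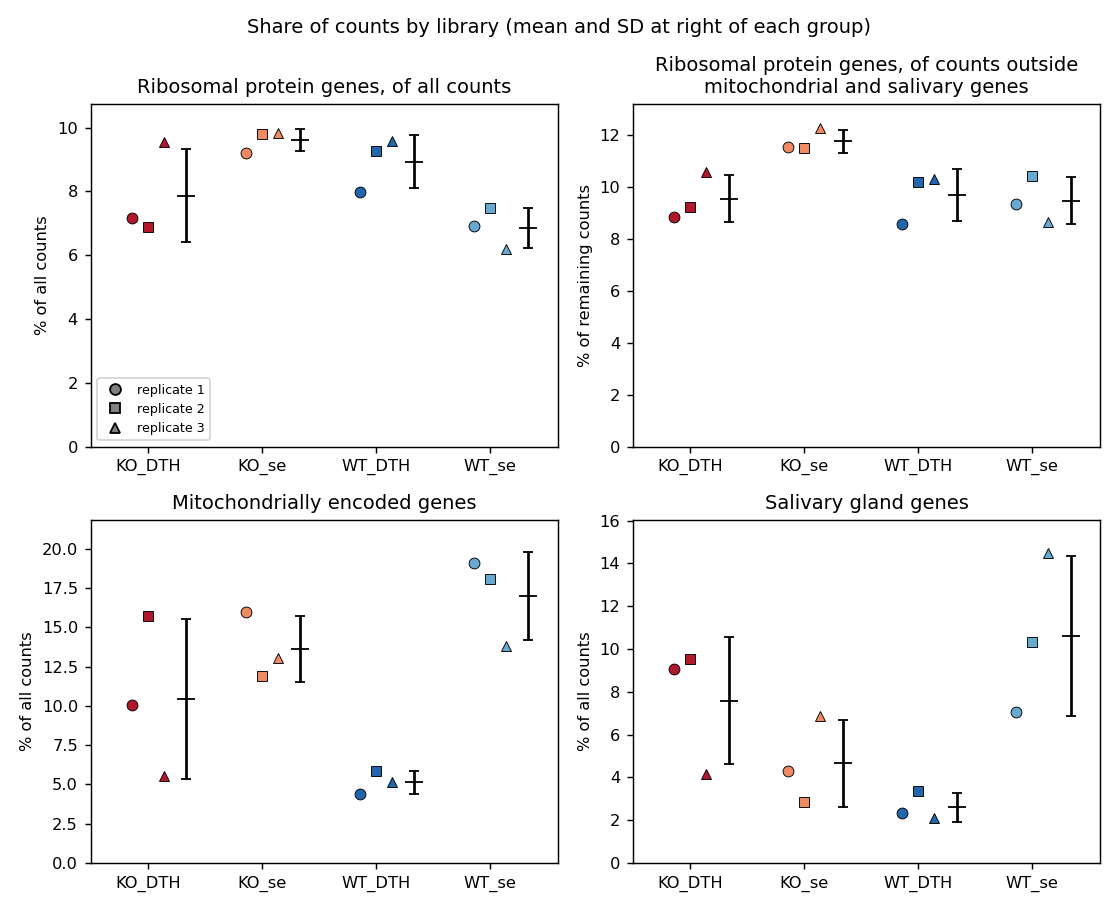
Percent of counts per library in the 4 groups (points, shaped by replicate; bars, mean and SD): ribosomal protein genes of all counts, the same of counts outside mitochondrial and salivary genes, and those 2 gene sets themselves. In the second panel the 3 KO_se libraries, at 11.5 to 12.3%, lie above the other 9.

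For single genes, counts were scaled by TMM, which sets the typical gene's change near 0, and tested with edgeR's quasi-likelihood test with Benjamini-Hochberg adjustment over 20034 genes. KO_se was first set against WT_se, to ask whether the knockout differs before challenge. The median log2 fold change of the ribosomal protein genes was 0.34, with 83 of 85 positive and a range of -0.16 to 0.64, against a median of -0.01 over all genes tested. Only 3 genes passed the threshold of 0.05, all higher, or 3.53% of the 85, while 5.17% of all genes passed (3.76% higher and 1.4% lower). By a cruder count, 67 of 85 genes had all 3 KO_se libraries above all 3 WT_se libraries and 0 had them below, where 15.1% of all genes were separated upward and 12.9% downward. An unadjusted p under 0.05 was reached by 59 of the 85 and by 4406 of all 20034 genes.

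Rps25, a 40S protein that several viral and cellular internal ribosome entry sites need, was the most clearly raised. Rps25 had 694, 771 and 837 CPM in KO_DTH, 1032, 984 and 1087 in KO_se, 699, 827 and 780.1 in WT_DTH, and 766, 847 and 665 in WT_se libraries. The KO_se libraries lay above all 9 others, and the log2 difference from WT_se was 0.45 ± 0.11 (SE, adjusted p = 0.0339). Rpl23a sits at the peptide exit of the 60S subunit, where the signal recognition particle docks. Rpl23a had 870.4, 956 and 1089 CPM in KO_DTH, 1342, 1291 and 1440.0 in KO_se, 879.5, 1068 and 1047 in WT_DTH, and 1047, 1076 and 884 in WT_se libraries. It was higher in KO_se than in WT_se by 0.44 ± 0.11 (SE, adjusted p = 0.0449), again with no overlap. Rpl22l1, the paralog of Rpl22, a gene that developing mouse T cells need, also passed. Rpl22l1 had 101, 115 and 127 CPM in KO_DTH, 155, 123 and 164 in KO_se, 104, 129 and 127 in WT_DTH, and 106, 115 and 89.1 in WT_se libraries. The KO_se libraries lay above those of WT_se but not above every WT_DTH library, and the log2 difference was 0.51 ± 0.13 (SE, adjusted p = 0.046). The calls were fragile, since each of the 4 libraries WT_se 1, WT_se 3, KO_se 1 and KO_se 3, left out alone, took the count of genes called to 0. Without WT_DTH 1 it was 15, without KO_DTH 3 it was 9, without KO_DTH 1 it was 8, without WT_se 2 it was 6, without WT_DTH 3 it was 5, and without WT_DTH 2 or KO_se 2 it was 1. The median log2 fold change stayed between 0.25 and 0.44 in all 12 of these fits. The share of all genes called in these fits is not given here.

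Not every member followed. The genes of 60S proteins had a median log2 difference of 0.36 and those of 40S proteins 0.33, while the 3 P stalk genes had 0.09. Rplp2 had 649, 819 and 813 CPM in KO_DTH, 672, 598 and 581 in KO_se, 637, 651 and 724 in WT_DTH, and 586, 661 and 620.2 in WT_se libraries. Rplp2, which pairs with Rplp1 in the stalk, thus did not separate KO_se from WT_se (-0.01 ± 0.11, SE, adjusted p = 0.965). Rplp0 had 2228, 2358 and 2461 CPM in KO_DTH, 2707, 2864 and 2779 in KO_se, 2099, 2469 and 2509.6 in WT_DTH, and 2567, 2880.4 and 2414 in WT_se libraries, and its KO_se and WT_se libraries overlapped (0.09 ± 0.10, SE, adjusted p = 0.672). Rplp0 anchors the stalk to the ribosome. The remaining stalk gene, Rplp1, was less flat, at 0.26 ± 0.13 for KO_se over WT_se (SE, adjusted p = 0.261). For KO_DTH over KO_se it had -0.27 ± 0.13 (SE, adjusted p = 0.233). Rps9 had 1345, 1355 and 1391 CPM in KO_DTH, 1416, 1449 and 1359 in KO_se, 1196, 1365 and 1425 in WT_DTH, and 1390.3, 1487 and 1320.4 in WT_se libraries. For this 40S protein gene the difference of KO_se from WT_se was 0.01 ± 0.09 (SE, adjusted p = 0.97). Rps2 (0.04 ± 0.09) and Rpl8 (0.06 ± 0.09) were as flat. Whether the stalk genes differ from the others as a class was not tested.

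KO_DTH set against KO_se shows the challenge, or the later day, in the knockout. It uses the same 3 KO_se libraries as the comparison above, so the values of both are not independent. Here the median log2 fold change was -0.29, with 78 of 85 negative, against 0.00 over all genes. The threshold was passed by 11 genes, all lower, which is 12.9% of the 85, while 9.67% of all genes passed, 3.86% lower and 5.81% higher. In 53 genes all KO_DTH libraries were below all KO_se libraries and in 1 (Rps19bp1) above, where the shares over all genes were 14.9% and 15.1%. An unadjusted p under 0.05 was reached by 52 of the 85 and by 4828 of all 20034 genes.

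The 11 were 7 genes of the 60S and 4 of the 40S subunit. Rps7 had 931, 1067 and 1186 CPM in KO_DTH, 1547, 1416 and 1694 in KO_se, 964, 1279 and 1169 in WT_DTH, and 1111, 1312 and 994 in WT_se libraries. Rps7, a 40S protein that binds Mdm2, fell by the widest margin of the 11 (-0.55 ± 0.14, SE, adjusted p = 0.0236). Rpl5 had 1297, 1399.7 and 1541 CPM in KO_DTH, 1886, 1908 and 2139.7 in KO_se, 1295, 1619 and 1439.9 in WT_DTH, and 1634, 1889 and 1459.8 in WT_se libraries. Rpl5 carries 5S ribosomal RNA into the 60S subunit together with Rpl11, and it was lower in KO_DTH than in KO_se with no overlap (-0.49 ± 0.12, SE, adjusted p = 0.0221). Rpl11 itself was not called (-0.33 ± 0.11, SE, adjusted p = 0.0895). Rpl10 had 1046, 1157 and 1149.8 CPM in KO_DTH, 1455, 1451 and 1544 in KO_se, 1009, 1211 and 1154 in WT_DTH, and 1218, 1332 and 1077 in WT_se libraries. Rpl10, among the last proteins to join the 60S subunit, differed by -0.41 ± 0.10 (SE, adjusted p = 0.0228). Rpl23a (-0.48 ± 0.11, SE, adjusted p = 0.0186) and Rps25 (-0.43 ± 0.11, SE, adjusted p = 0.0249), whose libraries are given above, fell as well.

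Rpl13a had 2122, 2235 and 2471 CPM in KO_DTH, 3146, 2909 and 3284 in KO_se, 2090.2, 2576 and 2529 in WT_DTH, and 2369, 2689 and 2066 in WT_se libraries. Rpl13a, known in human cells as a translational silencer when released from the ribosome, differed by -0.45 ± 0.12 (SE, adjusted p = 0.0305), and its KO_DTH libraries lay below those of KO_se. The remaining called genes were Rps4x, the X-linked S4 gene (-0.46 ± 0.12), Rps3, which lines the mRNA entry channel (-0.41 ± 0.11), Rpl12 at the base of the stalk (-0.43 ± 0.11), Rpl7 (-0.44 ± 0.12) and Rpl6 (-0.37 ± 0.10), with adjusted p of 0.0251, 0.0337, 0.0322, 0.0349 and 0.0376 in that order (edgeR). Leaving out KO_se 3 took the count from 11 to 0, leaving out KO_DTH 1 or KO_DTH 2 took it to 1, and leaving out KO_se 1 or KO_se 2 took it to 2. Without WT_se 2 it was 17, without WT_DTH 1 or KO_DTH 3 it was 19 and without WT_se 3 it was 22, while the median log2 fold change stayed between -0.38 and -0.21 throughout. How many of all genes were called in these fits is not given here. DESeq2's Wald test called 44 genes, 43 of them lower, where it called 14.7% of all genes.

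A few genes went the other way in the knockout without passing the test. Rplp2 had a log2 fold change of 0.30 ± 0.11 (SE, adjusted p = 0.0944), with KO_DTH 1 inside the range of KO_se and the other KO_DTH libraries above it. Rps27l, a paralog of Rps27 and a target of p53, had 0.29 ± 0.13 (SE, adjusted p = 0.187). Rps19bp1 had 0.23 ± 0.14 (SE, adjusted p = 0.332). Rps6 had 1350.5, 1486 and 1563 CPM in KO_DTH, 1855, 1933 and 1949.6 in KO_se, 1315, 1565 and 1663 in WT_DTH, and 1631, 1829.9 and 1415 in WT_se libraries. Rps6, the substrate of S6 kinase downstream of mTOR, was lower in all KO_DTH than in all KO_se libraries and stood just outside the threshold (-0.38 ± 0.11, SE, adjusted p = 0.0533). Rps18 had 1069, 1175 and 1281 CPM in KO_DTH, 1444, 1356 and 1571 in KO_se, 1049, 1298 and 1259 in WT_DTH, and 1169.5, 1293 and 969 in WT_se libraries. The KO_DTH libraries of this 40S gene were all below those of KO_se (-0.31 ± 0.12, SE, adjusted p = 0.14). Rpsa had 2437, 2724 and 2888 CPM in KO_DTH, 3262, 3307 and 3447 in KO_se, 2259.7, 2847 and 3057 in WT_DTH, and 2619.7, 3022 and 2303 in WT_se libraries. Rpsa, a 40S protein also known as a laminin receptor, was likewise lower in every KO_DTH library (-0.32 ± 0.13, SE, adjusted p = 0.148).

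**Figure D3:**
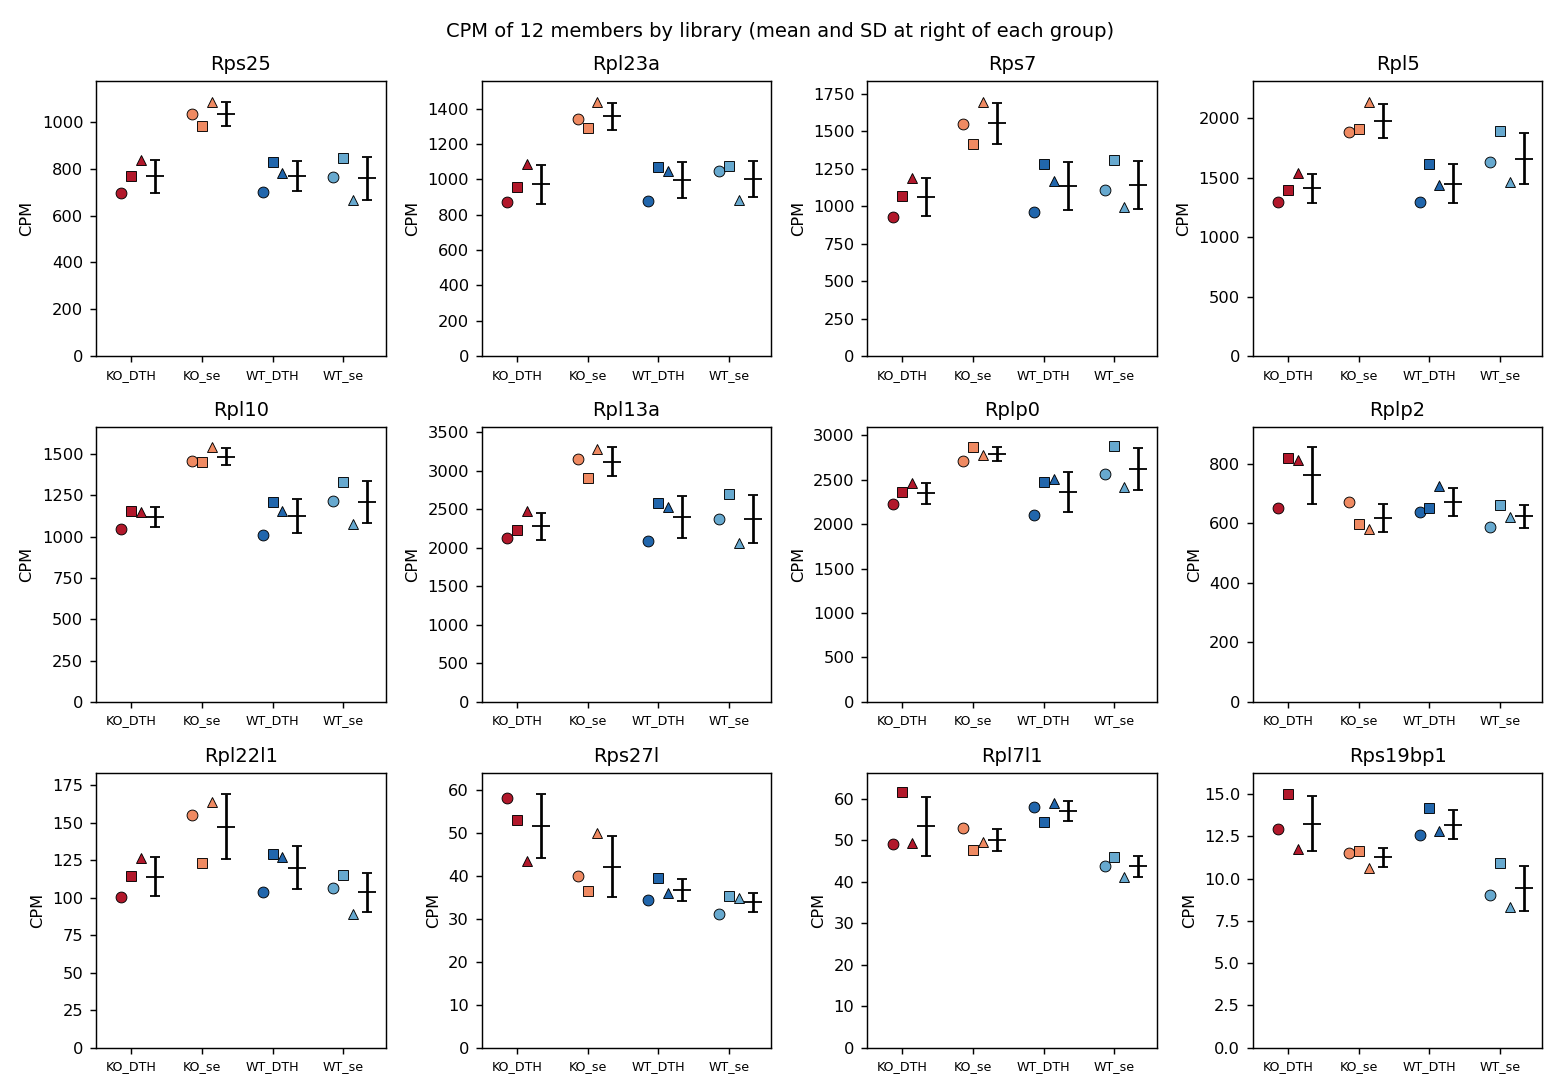
CPM of 12 genes in the 12 libraries (points, shaped by replicate; bars, group mean and SD, n = 3). In Rps25, Rpl23a, Rps7, Rpl10 and Rpl13a the 3 KO_se libraries stand above the other 9, while Rplp2, Rps27l, Rpl7l1 and Rps19bp1 are higher in other groups.

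In wild type, WT_DTH against WT_se gave no common direction. The median log2 fold change was 0.02, with 53 of 85 positive, against -0.01 over all genes. Only 2 genes passed the threshold, 2.35% of the 85, in a comparison where 18.7% of all genes passed (9.77% higher and 8.97% lower). Both belong to the paralogs and look-alikes. Rpl7l1 had 49, 61.5 and 49.4 CPM in KO_DTH, 52.9, 47.6 and 49.6 in KO_se, 58.1, 54.3 and 58.9 in WT_DTH, and 43.8, 46 and 41.1 in WT_se libraries. Rpl7l1, a paralog of Rpl7, was higher in every WT_DTH than in every WT_se library (0.39 ± 0.09, SE, adjusted p = 0.0128). Rps19bp1 had 13, 15 and 11.8 CPM in KO_DTH, 11.5, 11.6 and 10.6 in KO_se, 12.6, 14.2 and 12.8 in WT_DTH, and 9.04, 10.9 and 8.31 in WT_se libraries. It too was higher in WT_DTH without overlap (0.49 ± 0.14, SE, adjusted p = 0.0267). These were also the only 2 genes whose libraries did not overlap, where 17.6% of all genes were separated upward and 17.9% downward. Without WT_se 1, WT_se 3 or WT_DTH 2 the count was 1.

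The genes given above show how flat wild type was: WT_DTH over WT_se came to 0.02 ± 0.11 for Rps25, -0.00 ± 0.14 for Rps7, 0.01 ± 0.12 for Rpl13a and 0.04 ± 0.13 for Rpsa (log2 ± SE). This holds relative to the typical gene. When counts were scaled by library totals alone, the median of all genes moved to 0.37 and that of the ribosomal protein genes to 0.40, and 47 of the 85 were called higher where 35.7% of all genes were called. On the same scale the comparison of KO_se with WT_se had 43 called higher, at a median of 0.52 beside 0.17 for all genes and with 8.64% of all genes called, and KO_DTH with KO_se had 0 called, with 4.75% of all genes called.

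Between the challenged genotypes no ribosomal protein gene was called. KO_DTH over WT_DTH had a median log2 fold change of 0.01 against 0.01 over all genes, and 46 of 85 were positive. With edgeR 0 genes passed the threshold, where 0.599% of all genes did (0.514% higher and 0.0849% lower), and 1 had an unadjusted p under 0.05. That gene was Rps27l, and DESeq2's Wald test also called 1, where it called 4.65% of all genes. Rps27l had 58.1, 52.9 and 43.4 CPM in KO_DTH, 39.8, 36.5 and 50 in KO_se, 34.4, 39.5 and 36 in WT_DTH, and 31.2, 35.4 and 34.8 in WT_se libraries. All KO_DTH libraries were above those of WT_DTH, with a log2 difference of 0.49 ± 0.13 (SE, adjusted p = 0.0973). With KO_DTH 3 left out 1 gene was called, and with any other library left out 0 were. Rps27 and the near-silent Rpl39l were the other genes with all KO_DTH libraries higher, and 0 had them lower, where 10.1% and 8.64% of all genes were so separated. The differences were -0.04 ± 0.11 for Rpl23a, -0.04 ± 0.12 for Rpl5 and -0.05 ± 0.11 for Rps6 (log2 ± SE).

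Whether challenge acted differently in the genotypes was tested as an interaction, the log2 fold change of challenge in KO minus that in WT. Its median was -0.30 over the ribosomal protein genes, with 81 of 85 negative, against -0.01 over all genes. No gene passed the adjusted threshold with edgeR, where 2.11% of all genes did (1.67% higher and 0.439% lower). An unadjusted p under 0.05 was reached by 25 of the 85 and by 3215 of all 20034 genes, and DESeq2's Wald test called 5 where it called 6.18% of all genes. With library totals only, 42 of the 85 were called, all negative, where 12.3% of all genes were called, and the median was -0.68 beside -0.38 for all genes. When each group dropped its most salivary library the median was -0.16 and 0 were called. Among the genes given above the interaction was -0.48 ± 0.16 (SE, adjusted p = 0.152) for Rpl23a, -0.45 ± 0.15 (SE, adjusted p = 0.155) for Rps25 and -0.55 ± 0.19 (SE, adjusted p = 0.168) for Rps7. With TMM scaling, then, no single gene passed the test of a different response in the genotypes, and with library totals 42 did.

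The paralogs were compared with their partners as a log2 ratio within each library, for 4 pairs in 4 comparisons (16 exact permutation tests, two-sided, smallest possible p 0.1). Rpl7l1 was 3.49 to 4.58% of Rpl7 in KO_DTH, 2.62 to 2.98% in KO_se, 3.80 to 5.13% in WT_DTH and 3.02 to 3.43% in WT_se libraries. The balance was higher after challenge in both genotypes without overlap, by 0.53 (log2) for KO_DTH over KO_se and 0.42 for WT_DTH over WT_se, while KO_se minus WT_se was -0.20 (exact p = 0.1, adjusted 0.267 each). In the knockout Rpl7l1 itself changed little (0.09 ± 0.09, SE) and Rpl7 was lower (-0.44 ± 0.12, SE). In wild type Rpl7l1 was higher (0.39 ± 0.09, SE) and Rpl7 changed little (-0.03 ± 0.12, SE). Rpl22l1 was 29.6 to 31.3% of Rpl22 in KO_DTH, 28.98 to 31.4% in KO_se, 31.8 to 33.7% in WT_DTH and 27.5 to 31.4% in WT_se libraries. Its balance differed by 0.16 for WT_DTH minus WT_se and by -0.11 for KO_DTH minus WT_DTH, in both cases without overlap (exact p = 0.1, adjusted 0.267). Rpl22 itself had a log2 difference of KO_se from WT_se of 0.47 ± 0.13 (SE, adjusted p = 0.0614).

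Rpl36al had 145, 185 and 167 CPM in KO_DTH, 182, 165 and 187 in KO_se, 128, 142 and 168 in WT_DTH, and 132, 155 and 129 in WT_se libraries. Rpl36al, the autosomal copy of the X-linked Rpl36a, held 38.6 to 52.4% of its partner's level in KO_DTH, 40.8 to 44.0% in KO_se, 39.6 to 48.1% in WT_DTH and 44.6 to 49.0% in WT_se libraries, and only KO_se against WT_se did not overlap (-0.11, exact p = 0.1, adjusted 0.267). Rps27l was 2.65 to 5.81% of Rps27 over all 12 libraries, and its balance overlapped in every comparison. Rpl39l reached a mean of 18.8 counts per library and Rpl3l one of 9.3, too few to compare. None of the 16 comparisons passed adjustment, and the design did not allow it.

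Several genes share sequence with processed pseudogenes, and their counts cannot be read alone. The table held 298 pseudogenes named for one of the genes, 224 of them with a count, and they took 0.293 to 0.497% of a library. Of the 86 genes 60 had such a namesake, and in 13 it held more than 10% of their joint counts. Rpl17, which lies at the peptide exit, was the extreme. Rpl17 had 673, 249 and 532 CPM in KO_DTH, 1159.7, 881 and 661 in KO_se, 731, 939 and 509 in WT_DTH, and 652, 527 and 586 in WT_se libraries, with a spread inside groups of 0.49 (SD of log2 CPM). Its 11 pseudogenes held 35.4% of the joint counts in KO_se 1 and 82.0% in KO_DTH 2. Gene and pseudogenes added gave 1313, 1381 and 1513 CPM in KO_DTH, 1796, 1791 and 1881 in KO_se, 1244, 1506 and 1496 in WT_DTH, and 1498, 1637 and 1298 in WT_se libraries. The spread was then 0.13, and the 3 KO_se libraries were the highest of the 12. The log2 fold change of KO_DTH over KO_se, -0.89 ± 0.31 (SE, adjusted p = 0.0959) for the gene alone, became -0.38 ± 0.10 (SE, adjusted p = 0.0383, edgeR).

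Rpl7a behaved likewise. Rpl7a had 465, 331 and 594 CPM in KO_DTH, 332, 491 and 526 in KO_se, 392, 645 and 635 in WT_DTH, and 279, 534 and 226 in WT_se libraries, and its 13 pseudogenes held 20.5 to 55.3% of the joint counts. Adding them cut the spread inside groups from 0.47 to 0.22 (log2). The spread of Rpl21 went from 0.44 to 0.32, that of Rps27a, which is made as a fusion with ubiquitin, from 0.40 to 0.26, and that of Rpl30 from 0.31 to 0.22. The values of these 5 genes are uncertain where the counting could split reads between copies. Rps27rt had 161, 206 and 199 CPM in KO_DTH, 200.3, 220.1 and 195 in KO_se, 138, 174 and 371 in WT_DTH, and 189, 301 and 199 in WT_se libraries. Rps27rt is a retrotransposed copy of Rps27, and in WT_DTH 3 it was far above the other libraries of its group. Over the 60 genes the median spread was 0.156 alone and 0.149 with pseudogenes, so at the median the spread changed little. Only pseudogenes carrying the gene's symbol were added, and copies under other names are not covered. With pseudogenes added, 6 genes were called higher in KO_se than in WT_se in place of 3. The share of all genes called in that fit is not given here, so the 6 cannot be read against it.

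**Figure D4:**
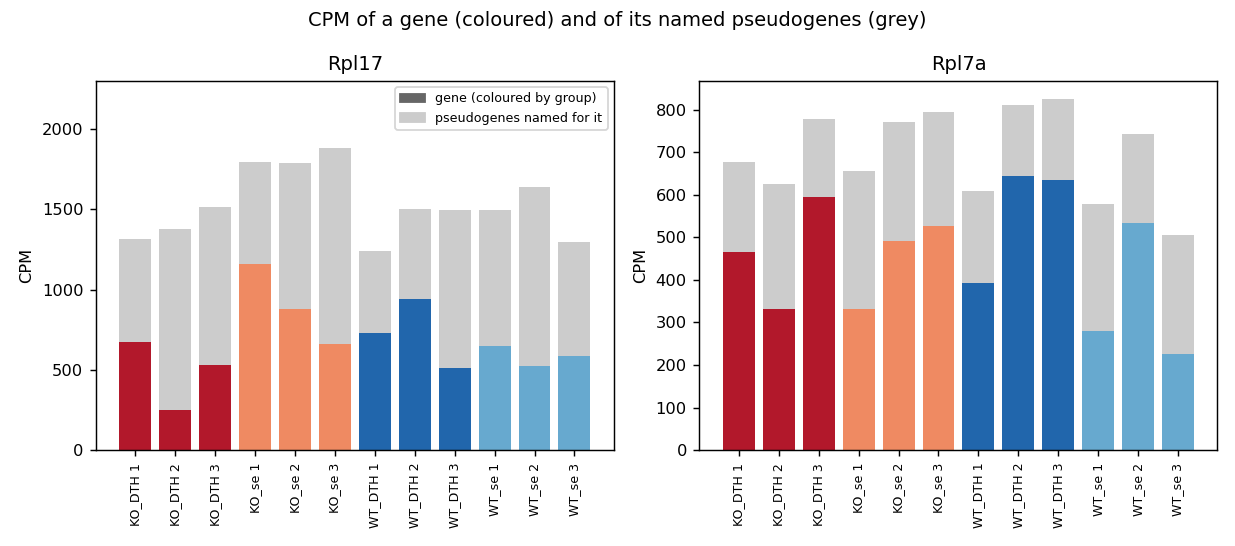
CPM of Rpl17 and Rpl7a (coloured by group) with the CPM of the pseudogenes named for each stacked in grey, for the 12 libraries. The coloured part of Rpl17 runs from 249 to 1159.7 CPM, while the full bars run from 1244 to 1881 CPM and are highest in the 3 KO_se libraries.

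The size of the changes was set against transcript length. Among the 77 genes without paralogs and look-alikes, the median log2 fold change of KO_DTH over KO_se was -0.26 in the 26 shortest (345 to 733 bases), -0.33 in the next 25 and -0.36 in the 26 longest (1047 to 5179 bases). For KO_se over WT_se the 3 medians were 0.40, 0.31 and 0.32. Spearman's rho between length and fold change was -0.34 and -0.17 in these comparisons, across genes that share the same libraries. Within each of these comparisons the 3 medians had the same sign. For KO_DTH over WT_DTH rho was -0.43, and the medians were 0.07 in the shortest, -0.01 in the next and -0.01 in the longest genes. Rpl41 had 1059.8, 1214 and 1264 CPM in KO_DTH, 1246, 1221 and 1401 in KO_se, 834, 1059.7 and 1179 in WT_DTH, and 965, 1042 and 869 in WT_se libraries. Rps29 had 756, 857 and 1137 CPM in KO_DTH, 913, 916 and 989 in KO_se, 721, 731 and 816 in WT_DTH, and 712, 792 and 571 in WT_se libraries. Rpl39 had 313, 347 and 436 CPM in KO_DTH, 445, 429.9 and 473 in KO_se, 316, 356 and 349.6 in WT_DTH, and 360.1, 406 and 309 in WT_se libraries. In these short genes KO_se over WT_se was 0.43 ± 0.13 for Rpl41, 0.44 ± 0.15 for Rps29 and 0.33 ± 0.13 for Rpl39, and KO_DTH over KO_se was -0.13 ± 0.13, -0.04 ± 0.15 and -0.30 ± 0.13, none of them called. Medians were close with and without the start tract: KO_DTH over KO_se had a median of -0.29 in 27 genes with the tract and -0.31 in 30 without, and KO_se over WT_se 0.33 and 0.34.

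Fau and Rack1 encode ribosomal proteins that carry other names. Fau, made as a fusion with a ubiquitin-like protein, averaged 1222 ± 14.2 CPM in KO_se and 931 ± 120.2 CPM in WT_se libraries (SD, n = 3) and was called higher (0.39 ± 0.10, SE, adjusted p = 0.046). The 40S scaffold Rack1 was not (0.17 ± 0.10). In KO_DTH over KO_se the log2 fold changes were -0.32 ± 0.10 for Fau and -0.31 ± 0.10 for Rack1, neither called. Fau kept its call in 11 of 23 alternative settings.

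Several translation factors, and other genes such as Hnrnpa1 and Nap1l1, are known to be under the same TOP control. Of 18 such genes, most of them translation factors, 5 fell in KO_DTH against KO_se and 2 rose in KO_se against WT_se. The medians were -0.17 and 0.12, and 0 were called in either other comparison of 2 groups. These are 27.8% and 11.1% of the list, where 9.67% and 5.17% of all genes were called. The 5 became 2 to 5 with 1 library left out, 0 with the salivary score and 1 with library totals, and the 2 became 0 to 3, 0 and 7. With library totals 10 were called in WT_DTH against WT_se. Eif3e, a subunit of initiation factor eIF3, averaged 228 ± 11.8 CPM in KO_DTH and 358 ± 25.9 CPM in KO_se libraries (-0.65 ± 0.11, SE, adjusted p = 0.00321). Eif3m averaged 175 ± 11.6 CPM in KO_se and 126 ± 10.7 CPM in WT_se libraries (0.48 ± 0.11, SE, adjusted p = 0.0301), and it fell in KO_DTH against KO_se (-0.46 ± 0.11, SE, adjusted p = 0.0213). Eif3h (-0.37 ± 0.07), Eif3l (-0.31 ± 0.07) and the elongation factor Eef1a1 (-0.39 ± 0.10) were the others that fell.

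Ribosome biogenesis factors, which process ribosomal RNA and assemble the subunits, were called in part after challenge. Of 40, 19 (47.5%) rose in WT_DTH against WT_se, where 18.7% of all genes were called, and 10 (25%) rose in KO_DTH against KO_se, where 9.67% were. Their median log2 fold changes were 0.28 with 39 positive and 1 negative in wild type, and 0.17 with 27 positive and 13 negative in the knockout, and 0 were called between genotypes (medians 0.05 when sensitized and -0.09 when challenged). Rrp9, a component of the U3 snoRNP, averaged 37.5 ± 1.19 CPM in KO_DTH and 24.3 ± 1.28 CPM in KO_se (0.63 ± 0.09, SE, adjusted p = 0.00102), and 38.2 ± 0.329 CPM in WT_DTH and 25.1 ± 2.92 CPM in WT_se libraries (0.60 ± 0.09, SE, adjusted p = 0.000835). Fbl, the methyltransferase fibrillarin, rose by 0.54 ± 0.09 in KO and 0.55 ± 0.09 in WT. Rrp12 (0.52 ± 0.08 and 0.45 ± 0.08) and the RNA polymerase I subunit Polr1a (0.39 ± 0.07 and 0.28 ± 0.07) also rose in both. With 1 library left out the counts were 5 to 11 in KO and 13 to 22 in WT, with the salivary score as a covariate they were 1 and 0, with the most salivary libraries dropped 2 and 9, and with library totals 5 and 40.

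Among 17 growth regulators of ribosome production, 6 rose in WT_DTH against WT_se and 4 in KO_DTH against KO_se (35.3% and 23.5% of the list, beside 18.7% and 9.67% of all genes), and 0 were called between genotypes. With the salivary score the counts were 0 and 2, and with library totals 11 and 2. Larp1, which binds the TOP motif and holds these mRNAs back when mTOR is off, rose by 0.62 ± 0.09 (SE, adjusted p = 0.000729) in KO and by 0.56 ± 0.09 (SE, adjusted p = 0.000891) in WT. Cdkn1a and Mdm2, targets of p53, rose by 1.10 ± 0.17 and 0.39 ± 0.08 in KO and by 1.21 ± 0.17 and 0.39 ± 0.08 in WT. Myc, which drives ribosome production, was not called (0.29 ± 0.20 (SE, adjusted p = 0.429) in KO and 0.57 ± 0.20 (SE, adjusted p = 0.0719) in WT). Of 78 mitochondrial ribosomal proteins, 10 rose in KO_se against WT_se, 6 rose in WT_DTH against WT_se, and 2 rose and 1 fell in KO_DTH against KO_se, which are 12.8%, 7.69% and 3.85% of the list beside 5.17%, 18.7% and 9.67% of all genes. With 1 library left out these calls numbered 2 to 11, 3 to 12 and 0 to 6, with the salivary score 1, 0 and 0, without the most salivary libraries 0 in each, and with library totals 28, 54 and 1. Of 10 snoRNA host genes, Snhg5 fell in KO_DTH against KO_se (-0.48 ± 0.13, SE, adjusted p = 0.0368), and it was the only call of that list in the 4 comparisons of 2 groups. That is 10% of the list, near the 9.67% of all genes called in KO_DTH against KO_se. Snhg5 lost its call in 10 of 23 alternative settings, and the list had 0 calls there with the salivary score and with library totals.

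**Figure D5:**
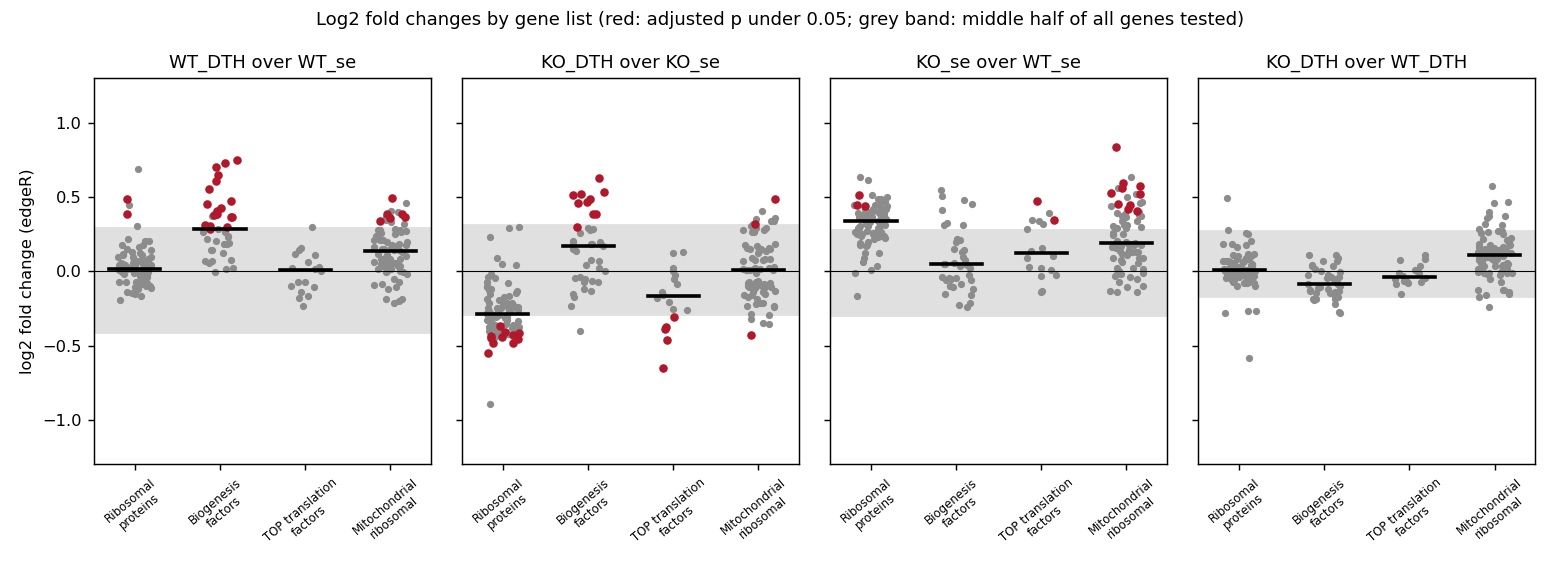
Log2 fold changes (edgeR) in the 4 comparisons of 2 groups, for 83 ribosomal protein genes, 40 biogenesis factors, 18 TOP genes and 78 mitochondrial ribosomal proteins. The 18 are labelled TOP translation factors, which most but not all of them are. Each point is a gene, red points passed the threshold, black lines are medians and the grey band holds the middle 50% of all genes tested. The median of the ribosomal proteins is below 0 in KO_DTH over KO_se and above it in KO_se over WT_se, and the medians of biogenesis factors are above 0 in both challenge comparisons.

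Markers of cell types were also called, to be read beside the share of all genes called. That share was 3.76% higher and 1.4% lower for KO_se over WT_se, and 5.81% and 3.86% for KO_DTH over KO_se. It was 9.77% and 8.97% for WT_DTH over WT_se, and 0.514% and 0.0849% for KO_DTH over WT_DTH. In lists this short, a single call does not set a list apart. Of 18 genes of dividing cells, 17 were higher in KO_se than in WT_se (median log2 difference 1.69) and 5 were lower in KO_DTH than in KO_se (median -0.55). Their summed level was 658 to 708 CPM in KO_DTH, 833 to 1021 CPM in KO_se, 428 to 597 CPM in WT_DTH and 355 to 475 CPM in WT_se libraries, with no gene at 0 in a whole group. KO_DTH stood above WT_DTH in this sum, while the median log2 difference of the ribosomal protein genes there was 0.01. Of 12 B cell genes, 3 were higher in KO_se than in WT_se and 1 was lower in KO_DTH than in KO_se. Of 15 T cell genes, 6 were lower in KO_se than in WT_se, and 1 was higher and 1 lower in KO_DTH than in KO_se. Of 10 plasma cell genes, 6 were higher and 1 lower in KO_se than in WT_se, and 1 was higher and 1 lower in KO_DTH than in KO_se. Of 14 myeloid genes, 3 were higher in KO_se than in WT_se, and 6 were higher and 2 lower in KO_DTH than in KO_se. Of 20 interferon response genes, 20 were higher in KO_DTH than in KO_se and 1 was lower in KO_se than in WT_se. Stromal genes had 1 of 10 higher in KO_se than in WT_se, and 0 of 9 erythroid and 0 of 13 mitochondrially encoded genes were called in either comparison. In WT_DTH against WT_se, 16 of 17 salivary, 13 of 13 mitochondrially encoded, 12 of 15 T cell and 6 of 9 erythroid genes were lower, while 10 of 12 B cell and 20 of 20 interferon response genes were higher. There 10 myeloid genes were higher and 2 lower, 4 plasma cell genes were higher and 2 lower, 4 of 18 genes of dividing cells were higher, 1 T cell gene was higher and 2 stromal genes were lower. In KO_DTH against WT_DTH 3 salivary genes were higher and 0 genes of the other lists were called. The part of these markers in the ribosomal protein results was not tested.

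Salivary tissue was put into the fit. Of 17 salivary genes tested, 0 were called in KO_se against WT_se (median -1.50, 13 at an unadjusted p under 0.05). In KO_DTH against KO_se, where 5.81% of all genes were called higher, 2 of the 17 salivary genes (11.8%) were called higher. Their summed level was 37120.2 to 108610.0 CPM in KO_DTH, 27214 to 69943 CPM in KO_se, 18210.2 to 30101 CPM in WT_DTH and 79824 to 160605 CPM in WT_se libraries, where Smr2 was at 0 in every KO_se and WT_DTH library and Klk1b1 in every WT_DTH library. With a salivary score as a covariate the median log2 fold change of the ribosomal protein genes was -0.28 for KO_DTH over KO_se and 0.33 for KO_se over WT_se. Without it the medians were -0.29 and 0.34. The counts of genes called with the score were 0 and 0, in a fit that called 2.47% and 0.27% of all genes. The score was 5.24 to 6.78 in KO_se, 7.40 to 8.18 in WT_se and 6.94 to 8.72 in KO_DTH libraries. It thus did not overlap between the groups compared, and this fit cannot tell salivary tissue from group. The part of salivary tissue in the ribosomal protein results was not tested.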

How the data were processed

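Bulk RNA-seq of 12 mandibular lymph node libraries was analysed from 1 table of estimated counts per Ensembl gene. Per the labels, total RNA was made into strand-specific libraries, and per the submitters' processing notes fastp 0.23.2, HISAT2 2.2.1 and StringTie 2.2.1 were used with GRCm39 before the estimated counts were deposited by the authors. How reads matching several copies were counted is not given in the sources used here. Names came from GENCODE vM21, which matched 52000 of the gene IDs, and promoters from RefSeq (GRCm38.p6).

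Counts were rounded, filtered with filterByExpr (minimum count 10), scaled by TMM and fitted in edgeR 4.0.16 (R 4.3.3, limma 3.58.1) as 1 model of 4 group means over 12 libraries. Quasi-likelihood tests were adjusted by Benjamini-Hochberg over 20034 genes at a threshold of 0.05; adjusted p-values in the text are these unless an exact test is named. CPM values use TMM library sizes. The script was tested on simulated data. Shares of counts and paralog balances were compared by two-sided exact permutation tests.

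Libraries carried replicate numbers, but libraries of the same number did not deviate together (18 correlations of -0.10 to 0.14), so they were not paired. Per-library values are given for 10 genes of set interest, for paralogs and for the 4 genes of smallest p in each direction of a comparison. A few others (Rpl17, Rpl7a, Rpl21, Rps27a, Rpl30, Rps9, Rpl8, Rps2, Rpl11, Rpl22, Rplp1, Rps4x, Rps3, Rpl12, Rpl7, Rpl6, Eef1a1, Myc) were added after their values were seen. The genes, the lists and the tests were chosen with earlier results of these data known. Alternatives covered scaling, filters, DESeq2 1.42.0, the replicate block, sex or a salivary score as covariate, libraries left out and pseudogenes added. The labels do not give sex, so it was inferred per library from whether Xist counts exceeded Ddx3y counts. How the inferred sexes fall over the 4 groups is not given here.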

Additional observations from a re-analysis of the deposited data

Results flagged for a closer look

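Pseudogenes named for the ribosomal protein genes lie outside the main measurement and still drew counts in every library. They held 0.497% of counts in KO_se 3, the highest, and 0.293% in WT_se 3, the lowest. Reads from a gene and from its processed copies may be split between them in the counting, and how they were split was not tested.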

How the results depend on the processing

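No called result was reversed in the alternatives run, but counts of genes called moved. For WT_DTH over WT_se the count was 2 and became 47 with library totals only (median 0.40), 0 with the salivary score, 1 with only the libraries compared and 1 when each group dropped its most salivary library. For KO_DTH over KO_se it was 11 and became 18 with DESeq2 size factors, 18 with a mean of at least 50 counts, 44 with DESeq2's Wald test, and 0 with library totals, with the salivary score and without the most salivary libraries. For KO_se over WT_se it was 3 and became 43 with library totals (median 0.52), 5 with no filter, 5 with a mean of at least 50 counts, 10 with only the libraries compared, 6 with pseudogenes added, 44 with the Wald test, and 0 with the salivary score and without the most salivary libraries. KO_DTH over WT_DTH had a median of -0.18 with library totals and 1 gene called by the Wald test. The interaction had 42 genes called and a median of -0.68 with library totals, 5 called by the Wald test, and a median of -0.16 without the most salivary libraries. The share of counts in WT_DTH minus WT_se was 0.218 points without mitochondrial and salivary genes. Of all genes, the Wald test called 14.7% for KO_DTH over KO_se and 11.4% for KO_se over WT_se. It called 4.65% for KO_DTH over WT_DTH and 6.18% for the interaction. With library totals the shares were 35.7% for WT_DTH over WT_se, 4.75% for KO_DTH over KO_se and 8.64% for KO_se over WT_se. For the interaction the share was 12.3%. The cause of the moves in counts, medians and shares was not tested.

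With 1 library left out, the counts were 1 to 3 for WT_DTH over WT_se, 0 to 22 for KO_DTH over KO_se, 0 to 15 for KO_se over WT_se and 0 to 1 for KO_DTH over WT_DTH. With the replicate block they were 2, 11, 1 and 0 in that order, and 0 for the interaction. The labels do not say what a replicate number marks. Single-gene calls rest on 3 libraries a group. For the fits with 1 library left out and several other settings, the share of all genes called is not given here. Those counts therefore do not single out the ribosomal protein genes.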
